A study of Mus musculus with 7 samples.

Results

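Of 12393 genes measured in the mouse soleus, a slow postural muscle of the hindlimb, 42 carry an Eif symbol, the name given to eukaryotic translation initiation factors. They were found as every gene whose single platform symbol starts with Eif and a digit, and each is represented by its brightest probe set over the arrays, out of 103 such probe sets. Expression was compared between 4 arrays from mice labelled Yin Yang 1 (YY1) knockout and 3 arrays from wild type mice, all aged 6 months and on a mixed background of C57Bl/6 and 129. The sources used here do not give the allele, the cells that lost Yy1 or any Cre line. They also do not say whether each array is a separate animal, so p-values measure only the spread between these arrays, which may be technical. The 42 genes comprise 35 factors, 4 kinases that act on eIF2 (Eif2ak) and 3 genes of proteins that bind and restrain eIF4E (Eif4ebp1, Eif4ebp2 and Eif4enif1).

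Translation begins when eIF2, carrying GTP and the initiator tRNA, joins the small ribosomal subunit together with eIF1, eIF1A, eIF5 and the large scaffold eIF3. The eIF4 factors bring the messenger RNA: eIF4E holds the cap, eIF4G bridges to eIF3, and the helicase eIF4A, helped by eIF4B and eIF4H, unwinds the leader. Start codon recognition lets eIF5 trigger GTP hydrolysis, eIF5B joins the large subunit, and eIF2B recharges eIF2 with GTP. Cells tune the process at eIF2 and at eIF4E: eIF2 kinases block eIF2B through phosphorylated eIF2, and hypophosphorylated 4E-binding proteins, which mTOR signalling inactivates in growing muscle, keep eIF4E from eIF4G.

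The genes of slow and fast muscle fibres were bright on every array. They also moved with genotype: of 9 measured, 4 were called higher and 2 lower (summed intensity 322800 to 331700 in knockout, 314700 to 326000 in wild type). Over all genes 17% were called higher and 16% lower, which applies to the marker counts below too. The slow fibre genes Myh7 (0.17), Tnnt1 (0.21), Tnni1 (0.40) and Tnnc1 (0.25) were higher on the log2 scale. The fast myosin gene Myh2 (-0.46) and the creatine kinase gene Ckm (-0.21) were lower, and Myh1, Acta1 and Myl2 did not pass. Yy1 itself read 8.39, 8.24, 8.48 and 8.29 log2 units on the knockout arrays and 9.32, 9.20 and 9.62 on the wild type arrays, a change of -1.02 on the log2 scale (SE 0.10, adjusted p = 0.000213; exact two-sided permutation p = 0.0286, the smallest that 4 arrays against 3 allow). Its other 3 probe sets stood at 30.7%, 58.8% and 95.9% of wild type in knockout, the last not called (adjusted p = 0.708). Other cell types moved with genotype too. All 7 macrophage markers measured were higher (summed intensity 6907 to 11750 in knockout, 3225 to 3919 in wild type), as were 4 of 6 fibroblast markers (23760 to 35810 in knockout, 18590 to 21930 in wild type). All 6 endothelial markers were lower (1337 to 1492 in knockout, 2873 to 3152 in wild type), and so was 1 of 2 Schwann cell markers (1317 to 1641 in knockout, 1757 to 2249 in wild type). Neither of 2 adipocyte markers passed (1072 to 2258 in knockout, 1711 to 3275 in wild type), nor did any of 3 T cell markers (183.1 to 222.4 in knockout, 181.7 to 199 in wild type). The part of these cells, and of the fibre genes, in the differences below was not tested. In whole muscle, fewer cells of a type and less RNA per cell cannot be told apart.

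In the knockout soleus 14 of the 42 genes were higher and 6 were lower at an adjusted p under 0.05. Over all genes 17% were called higher and 16% lower, 32.9% together, against 33.3% and 14.3%, together 47.6%, of the Eif genes. Genes above the median brightness were called more often than all genes: a fit of those alone called 1622 higher and 1606 lower. It called 15 Eif genes higher and 6 lower, and left out only Eif2ak2, Eif2ak3 and Eif2ak4. In that fit the share called in either direction was about the same for the Eif genes as for all its genes. The 32.9% is therefore not a share among genes of like brightness. Set beside it, 47.6% does not show that Eif genes were called in excess. The same limit holds for the group shares below. The changes were small. They ran from -0.57 for Eif4e3 to 0.68 for Eif3c on the log2 scale, and none reached 2-fold, which 469 of all genes did. The median log2 fold change of the 42 was 0.063, beside 0.013 over all genes, and the median size of change 0.21, beside 0.15. Knockout and wild type values did not overlap in 23 of the 42 genes (54.8%), beside 39.5% of all genes. Fewer genes were called when a single wild type array was left out: without wild type array 2, 8 were higher and 3 lower, and without wild type array 3, 9 were higher and 1 lower. Counts over all genes fell too, from 2103 higher and 1979 lower to 1592 and 1579 without array 2. They were 1660 and 1587 without array 3. Each such fit has fewer arrays. The 8 genes called under all 20 alternative settings and array omissions were Eif1a, Eif5, Eif2b5, Eif3c, Eif3d, Eif5a and Eif6, all higher, and Eif3f, lower.

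**Figure D1:**
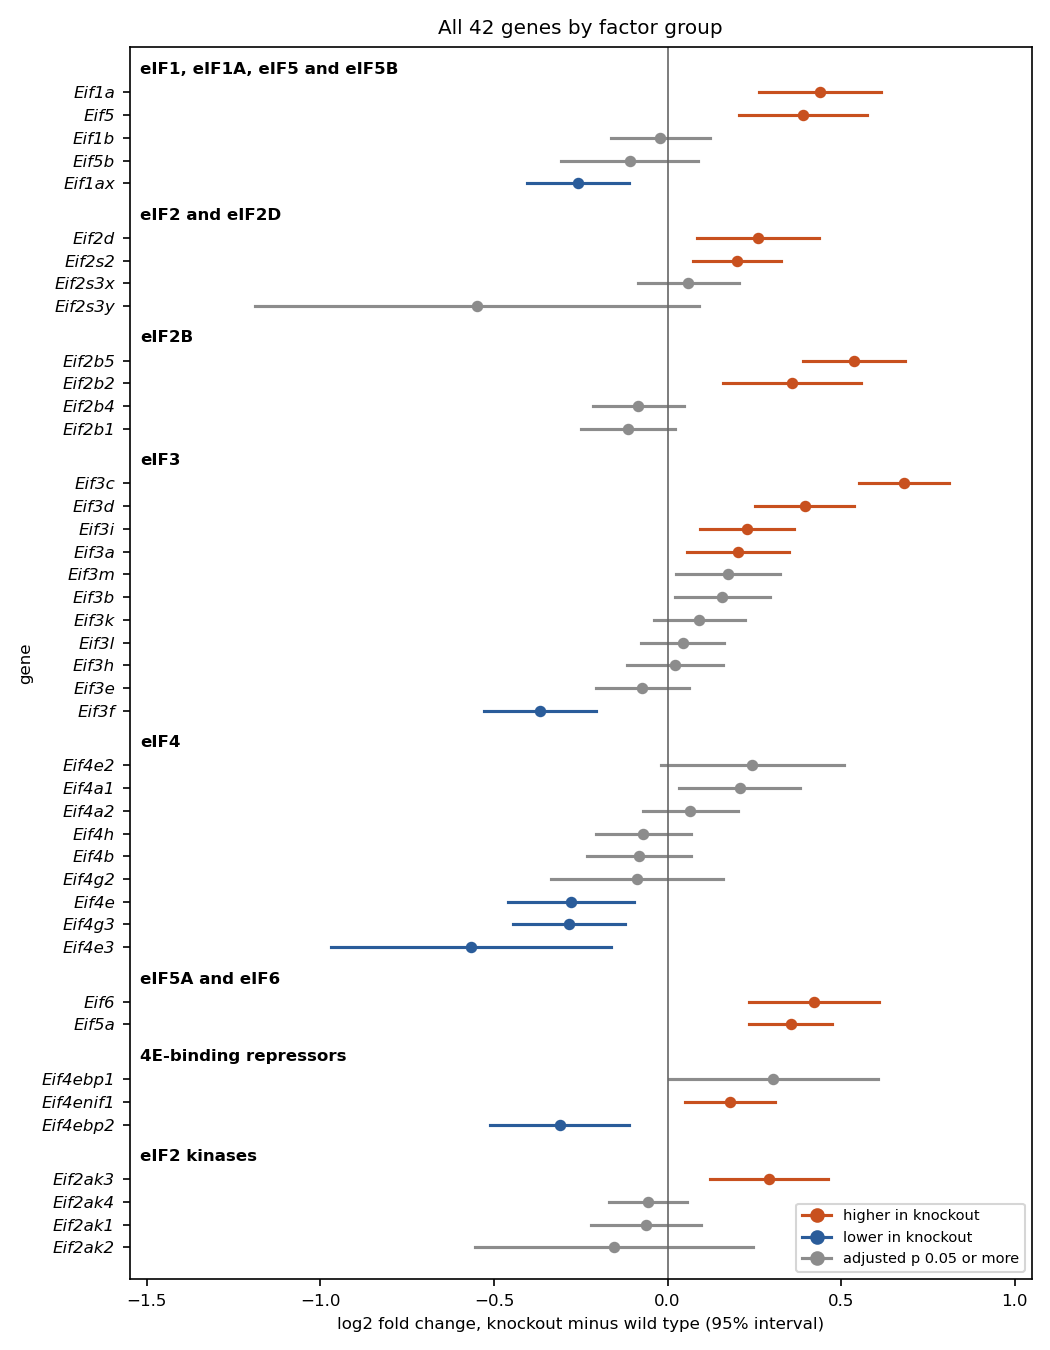
Log2 fold change (knockout minus wild type, horizontal axis) with its 95% interval for each of the 42 genes, grouped by factor; orange marks genes called higher, blue genes called lower and grey the rest. Calls are spread over the groups: eIF3 holds 4 higher and 1 lower, and eIF4 holds 3 lower and none higher. These are 45.5% and 33.3% of their genes, beside 32.9% of all genes.

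eIF3, the scaffold of the small subunit complex, had 11 measured genes, of which 4 rose and 1 fell, with a median log2 fold change of 0.16. Called genes made up 45.5% of the group, beside 32.9% of all genes. Eif3c, a core subunit that contacts eIF1 and eIF5, read 12.98, 13.06, 12.92 and 12.95 log2 units in knockout and 12.27, 12.27 and 12.35 in wild type. The lowest knockout array lay above the highest wild type array by more than the whole spread within either group, and the rise was 0.68 (SE 0.06, adjusted p = 9.56e-05), or 1.60-fold. Its reading comes from a probe set with the suffix _x_at, by which the maker marks probes that may also bind other transcripts. The 3 other Eif3c probe sets were called higher as well, by 0.32, 0.38 and 0.32 in a fit over all probe sets, and the first of these is also an _x_at set.

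Eif3d, a subunit that in human cells can itself bind the cap of some messenger RNAs, read 11.23, 11.40, 11.37 and 11.23 in knockout and 10.93, 10.92 and 10.89 in wild type. The groups were well apart and the rise was 0.39 (SE 0.06, adjusted p = 0.00166). Eif3i, a WD-repeat subunit, read 12.65, 12.75, 12.73 and 12.62 in knockout and 12.52, 12.40 and 12.45 in wild type, a rise of 0.23 (SE 0.06, adjusted p = 0.0177). Eif3a, the largest core subunit, rose by 0.20 (SE 0.06, adjusted p = 0.0397; 12.31 to 12.47 in knockout, 12.12 to 12.26 in wild type). The Eif3i and Eif3a calls depended on single arrays. Eif3i missed the threshold without wild type array 2 (adjusted p = 0.0679) or 3 (0.0535), and Eif3a without knockout array 2, 3 or 4 or any single wild type array (0.0564 to 0.132) or with quantile normalization (0.0528). In the fit over all probe sets the second Eif3i probe set measured 0.085, and the other 3 of Eif3a measured 0.064 to 0.31, none of them called.

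Eif3f moved the other way. This subunit carries an MPN domain and is known in muscle as a target of the atrophy ubiquitin ligase atrogin-1. It read 12.20, 12.10, 12.06 and 12.28 log2 units in knockout and 12.49, 12.48 and 12.61 in wild type. Every knockout array was below every wild type array, and the fall was -0.37 (SE 0.07, adjusted p = 0.00441), to 77.5% of the wild type level. The gene has 1 probe set here, so no second reading was at hand.

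The other 6 eIF3 genes did not pass. Eif3b, a core scaffold subunit, and Eif3m measured 0.16 and 0.17 (adjusted p = 0.0768 and 0.0734) with no overlap between the groups, and Eif3m passed in 2 alternatives, with quantile normalization (0.035) and over genes above the median brightness (0.0494). Eif3k measured 0.091 and Eif3l 0.043. The 95% interval was -0.12 to 0.16 for Eif3h and -0.21 to 0.061 for Eif3e. Whether subunits differed from one another in response was not tested.

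**Figure D2:**
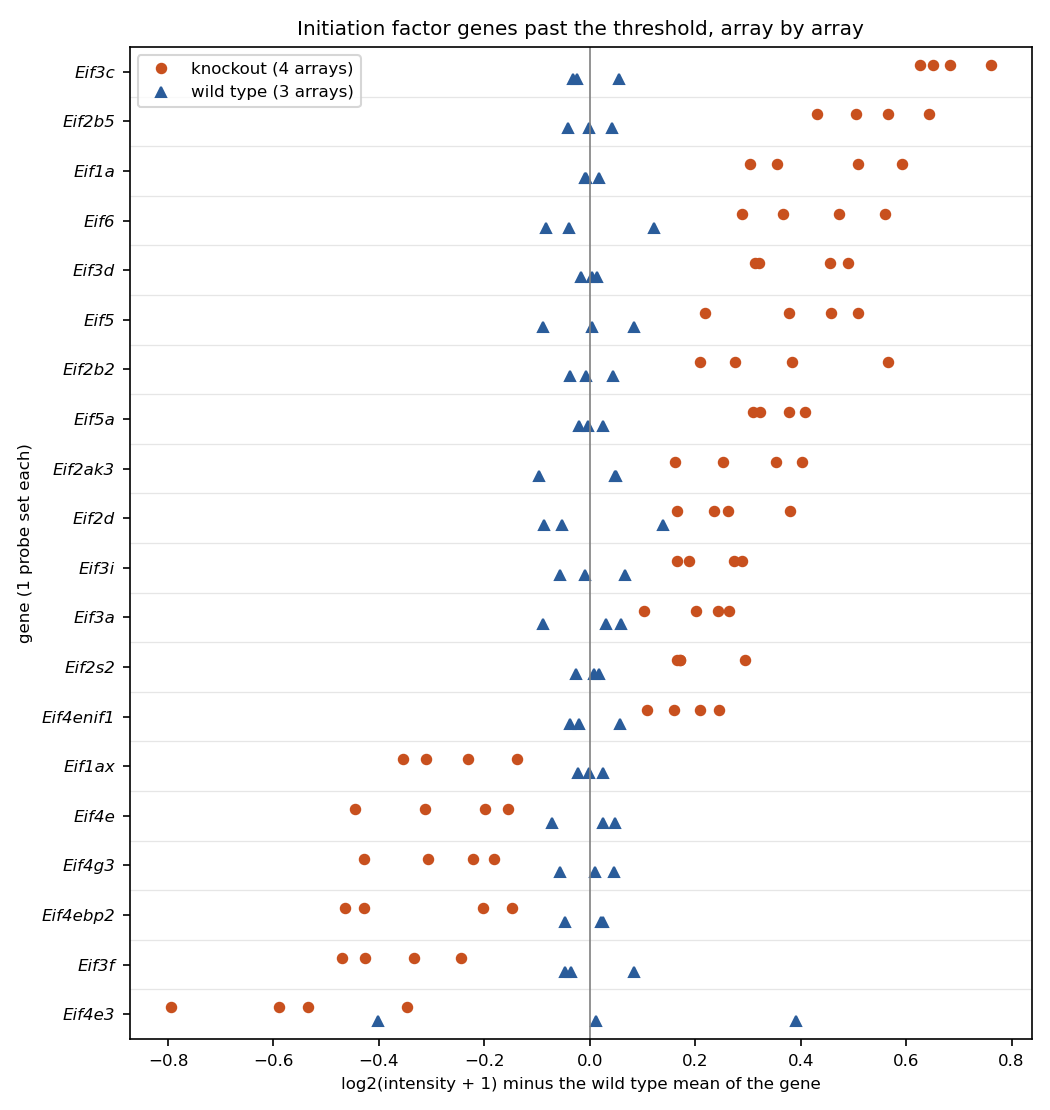
Each array's log2(intensity + 1) for the 20 called genes, as the difference from that gene's wild type mean (horizontal axis); circles are the 4 knockout arrays and triangles the 3 wild type arrays. The knockout points stand clear of the wild type points in every gene shown but Eif4e3, where wild type array 1 lies among the knockout arrays.

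Among the factors of start codon selection and subunit joining (eIF1, eIF1A, eIF5 and eIF5B), 2 of 5 genes rose and 1 fell, with a median of -0.021. That is 60% called, beside 32.9% of all genes. Both copies of the eIF1A gene changed, in opposite directions. Eif1a, the autosomal copy, read 8.69, 8.84, 8.93 and 8.64 log2 units in knockout and 8.32, 8.35 and 8.33 in wild type. Eif1ax, the X-linked copy, read 11.05, 10.97, 10.93 and 11.15 in knockout and 11.28, 11.26 and 11.31 in wild type. No array of one genotype reached into the range of the other in either gene. Eif1a rose by 0.44 (SE 0.08, adjusted p = 0.00274) and Eif1ax changed by -0.26 (SE 0.06, adjusted p = 0.0148). The second probe set of each gene gave the same direction and was called in the fit over all probe sets, at 0.24 for Eif1a and -0.70 for Eif1ax. The Eif1ax call at its brightest probe set was just missed without wild type array 3 (adjusted p = 0.0521), and the Eif1a probe set has the suffix _s_at, by which the maker marks probes shared by several transcripts.

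Eif5, whose protein makes eIF2 hydrolyse its GTP, read 12.32, 12.40, 12.16 and 12.45 in knockout and 12.02, 11.85 and 11.94 in wild type. The groups did not touch, and the rise was 0.39 (SE 0.08, adjusted p = 0.00628). In the fit over all probe sets 3 of its 4 were called higher, the largest at 0.53, and the fourth measured 0.18. Eif1b, a close relative of eIF1, measured -0.021 (95% interval -0.16 to 0.12). Eif5b measured -0.11 (adjusted p = 0.375) at its brightest probe set, while the dimmest of its 3 probe sets was called lower at -0.45 (adjusted p = 0.0129).

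eIF2 and the related factor eIF2D gave 2 higher genes of 4 and none lower (50% called, beside 32.9% of all genes), with a median of 0.13. Eif2s2, the beta subunit, read 13.26, 13.39, 13.26 and 13.26 in knockout and 13.11, 13.07 and 13.10 in wild type, and rose by 0.20 (SE 0.06, adjusted p = 0.0234). Eif2d, which can deliver initiator tRNA without GTP, read 10.06, 9.92, 9.85 and 9.95 in knockout and 9.63, 9.82 and 9.60 in wild type, and rose by 0.26 (SE 0.08, adjusted p = 0.0307). Neither call was firm. Eif2s2 missed the threshold without any single wild type array (adjusted p = 0.052 to 0.0761) and Eif2d without any single array other than knockout array 3 or wild type array 2 (0.0581 to 0.110). None of the other probe sets of these genes was called: the 5 of Eif2s2 measured -0.21 to 0.19 and the 3 of Eif2d 0.053 to 0.12. With all probe sets of a gene averaged, Eif2s2 measured 0.053 (adjusted p = 0.509) and Eif2d 0.13 (adjusted p = 0.066).

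The gamma subunit of eIF2 has an X-linked gene, Eif2s3x, and a Y-linked one, Eif2s3y. Eif2s3x read 11.17, 11.07, 10.97 and 11.18 in knockout and 11.04, 11.03 and 11.03 in wild type, a difference of 0.060 (95% interval -0.086 to 0.21). Eif2s3y read 10.64, 9.17, 9.99 and 10.03 in knockout and 10.51, 10.43 and 10.57 in wild type. Knockout array 1 was above all wild type arrays and knockout array 2 was far below them, so that the SD was 0.60 in knockout and 0.07 in wild type, the widest spread of the 42 genes. The difference of -0.55 (SE 0.28) did not pass (adjusted p = 0.173), but it did without knockout array 1 (-0.78, adjusted p = 0.0296). Of the other Y-linked genes on the array, Uty was lower in knockout (5.47 to 6.00, against 6.25 to 6.30 in wild type; -0.55, SE 0.11, adjusted p = 0.00555) and Kdm5d measured -0.16 (adjusted p = 0.234). Xist, the transcript of the inactive X chromosome, read 6.27 to 6.56 in knockout and 6.35 to 6.43 in wild type. The labels do not give the sex of the mice.

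eIF2B, the exchange factor that reloads eIF2 with GTP and the point at which the integrated stress response acts, had 4 genes. Of these 2 rose and none fell (50% called, beside 32.9% of all genes), with a median of 0.14. Eif2b5, the catalytic epsilon subunit, read 10.79, 10.93, 10.71 and 10.85 in knockout and 10.24, 10.28 and 10.32 in wild type. It rose by 0.54 (SE 0.06, adjusted p = 0.000429), or 1.45-fold, with the groups far apart. Eif2b2, the regulatory beta subunit, read 10.46, 10.82, 10.63 and 10.53 in knockout and 10.30, 10.21 and 10.24 in wild type and rose by 0.36 (SE 0.09, adjusted p = 0.0132), a call just missed without wild type array 2 (0.0529). Its 2 other probe sets measured 0.40 (adjusted p = 0.0763) and 0.32 (adjusted p = 0.0413). The brightest and the dimmest of the 3 have the suffix _x_at. Eif2b4, the delta subunit, and Eif2b1, the alpha subunit, measured -0.084 (95% interval -0.21 to 0.047) and -0.11 (-0.25 to 0.023).

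In eIF4, the group that recruits the messenger RNA, 3 of 9 genes fell and none rose, with a median of -0.082. The 33.3% called is near the 32.9% of all genes. Eif4e, the cap-binding protein, read 12.05, 11.80, 12.09 and 11.93 log2 units in knockout and 12.27, 12.17 and 12.29 in wild type. The highest knockout array was below the lowest wild type array, and the fall was -0.28 (SE 0.08, adjusted p = 0.0267), to 82.5% of wild type. The call was missed without knockout array 4 (adjusted p = 0.0634) or wild type array 1 (0.0817) or 3 (0.0912). Both dimmer Eif4e probe sets were called lower too, at -0.45 (adjusted p = 0.0059) and -0.64 (adjusted p = 0.00626), so that the reported value is the smallest of the 3.

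Eif4e3, a divergent cap-binding relative, had the largest fall at -0.57 (SE 0.18, adjusted p = 0.0385). It read 9.44, 8.99, 9.25 and 9.19 in knockout and 9.38, 10.17 and 9.80 in wild type, and here wild type array 1 lay below knockout array 1. Without wild type array 2 the value was -0.37 (adjusted p = 0.122), and without knockout array 2, 3 or 4 or wild type array 3 the adjusted p was 0.0752 to 0.108. The other Eif4e3 probe set did not overlap between genotypes and was called lower at -0.69 (adjusted p = 0.00167). Eif4g3, a scaffold of the eIF4F cap complex related to eIF4G1, read 10.56, 10.48, 10.36 and 10.60 in knockout and 10.73, 10.80 and 10.83 in wild type. It changed by -0.29 (SE 0.07, adjusted p = 0.0148) and just missed the threshold without wild type array 2 (0.0512) or 3 (0.057).

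The other 6 eIF4 genes did not pass at their brightest probe set. The helicase genes Eif4a1 and Eif4a2 measured 0.21 (adjusted p = 0.0681) and 0.065 (95% interval -0.072 to 0.20). Eif4a1 passed without knockout array 1 (0.26, adjusted p = 0.016), but its 2 other probe sets measured -0.014 and -0.046. Eif4b and Eif4h, the helicase's partners, measured -0.082 and -0.070, with intervals of -0.23 to 0.068 and -0.21 to 0.067. Eif4g2, whose product DAP5 lacks the eIF4E site and serves cap-independent initiation, measured -0.087 (adjusted p = 0.576), though the third brightest of its 4 probe sets was called lower at -0.34 (adjusted p = 0.00625). Eif4e2, a cap-binding protein that represses translation, measured 0.24 (adjusted p = 0.144), and 1 of its 3 dimmer probe sets was called higher at 0.39 (adjusted p = 0.0088).

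Of the 3 repressor genes 1 rose, 1 fell and 1 did not pass (66.7% called, beside 32.9% of all genes). Eif4ebp1 read 10.79, 10.87, 10.57 and 11.11 in knockout and 10.47, 10.39 and 10.74 in wild type, with overlap, and its difference of 0.31 (SE 0.13) did not pass (adjusted p = 0.113). It passed without knockout array 3 (0.39, adjusted p = 0.0468). The probe set behind these values has the suffix _x_at. A second Eif4ebp1 probe set, almost equally bright on average, was called higher at 0.46 (SE 0.10, adjusted p = 0.00699). This second set read 10.91 ± 0.14 in knockout (SD, n = 4) and 10.44 ± 0.15 in wild type (SD, n = 3). The dimmest measured -0.011. Eif4ebp2 read 8.23, 7.95, 7.91 and 8.17 in knockout and 8.40, 8.40 and 8.33 in wild type. Its values did not overlap, and the fall was -0.31 (SE 0.09, adjusted p = 0.0259). That call was missed without knockout array 2 or 3 or any single wild type array (0.0547 to 0.0845). The second of its 5 probe sets changed by -0.87 (SE 0.11, adjusted p = 0.000746), and the other 3 were not called, at -0.34 (adjusted p = 0.0717), 0.073 and -0.048. Eif4enif1, the transporter 4E-T that carries eIF4E into the nucleus and into processing bodies, read 9.77, 9.81, 9.67 and 9.72 in knockout and 9.62, 9.54 and 9.52 in wild type. It rose by 0.18 (SE 0.06, adjusted p = 0.0402), and missed the threshold without knockout array 1, 2 or 4 or wild type array 2 or 3 (0.0669 to 0.115). The same held once each array's median was subtracted (0.0575).

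**Figure D3:**
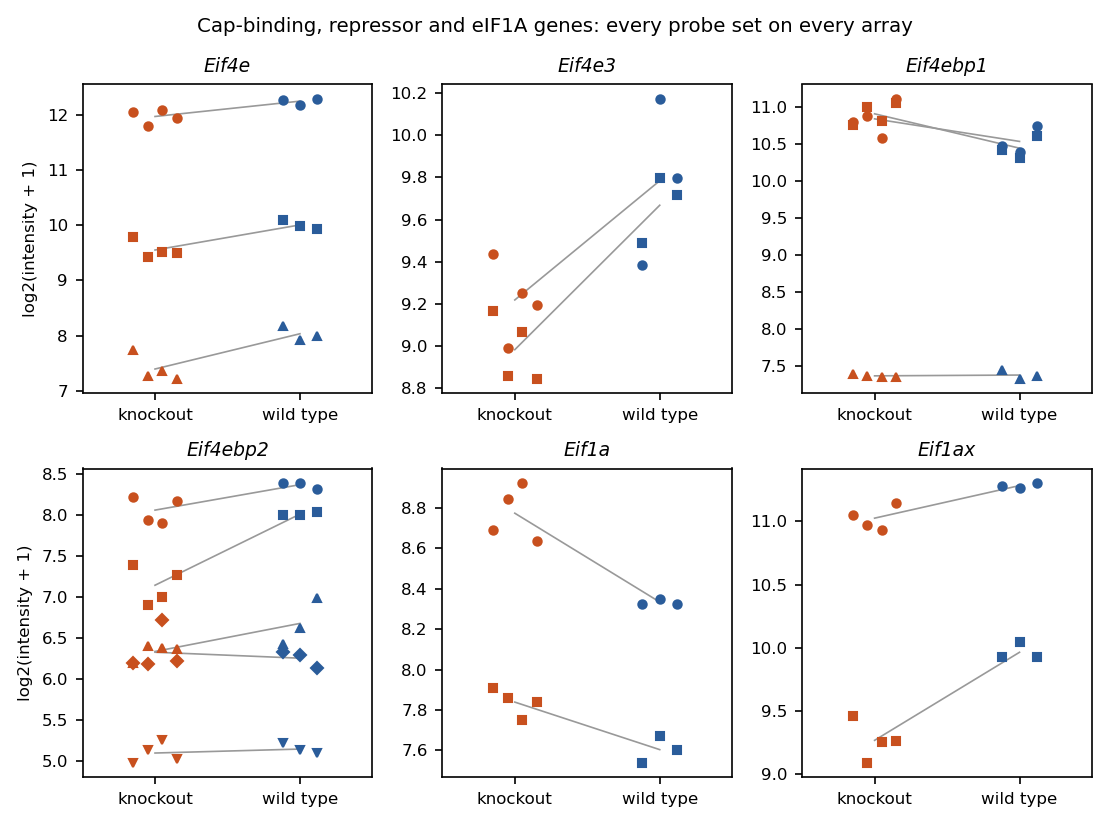
Log2(intensity + 1) on each array (vertical axis) for every probe set of 6 genes, with knockout on the left and wild type on the right of each panel; symbols tell the probe sets of a gene apart and grey lines join the group means. All 3 Eif4e and both Eif4e3 and Eif1ax probe sets are lower in knockout, both Eif1a probe sets are higher, and the probe sets of Eif4ebp1 and Eif4ebp2 do not all move alike.

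Of the 4 kinases that phosphorylate eIF2, 1 rose and none fell, with a median of -0.059. The 25% called, beside 32.9% of all genes, is 1 gene, and Eif2ak2, Eif2ak3 and Eif2ak4 were not above the median brightness. Eif2ak3, the kinase PERK of endoplasmic reticulum stress, read 7.47, 7.38, 7.62 and 7.58 in knockout and 7.27, 7.13 and 7.27 in wild type. It rose by 0.29 (SE 0.07, adjusted p = 0.0167), and lost the call without wild type array 2 (0.0689) and with its probe sets averaged (0.11, adjusted p = 0.245). Its 2 other probe sets were dim, at 4.82 ± 0.21 and 4.72 ± 0.13 in knockout (SD, n = 4) and 4.71 ± 0.03 and 4.80 ± 0.12 in wild type (SD, n = 3), and differed by 0.11 and -0.085. Eif2ak1, the heme-regulated kinase HRI, read 8.23, 8.11, 8.13 and 8.32 in knockout and 8.23, 8.20 and 8.34 in wild type, a difference of -0.061 (95% interval -0.22 to 0.098). Eif2ak2, the double-stranded RNA kinase PKR and an interferon-induced gene, read 6.95, 6.81, 7.31 and 6.94 in knockout and 6.76, 7.21 and 7.49 in wild type. Its wild type arrays spanned the whole knockout range, and the difference was -0.15 (-0.55 to 0.25). Eif2ak4, the amino acid sensing kinase GCN2, was dim, with 5.62, 5.61, 5.66 and 5.60 in knockout and 5.72, 5.66 and 5.66 in wild type, and measured -0.057 (-0.17 to 0.055).

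Both genes of the group eIF5A and eIF6 rose, beside 17% of all genes called higher. Eif5a, whose protein carries the modified residue hypusine and helps the ribosome through difficult stretches, read 14.05, 14.15, 14.06 and 14.12 in knockout and 13.72, 13.74 and 13.76 in wild type. It rose by 0.35 (SE 0.05, adjusted p = 0.00113), and a dimmer second probe set by 0.33 (adjusted p = 0.00509). These probe sets carry the suffixes _s_at and _x_at, so both may read other transcripts too. Eif6, which keeps the ribosomal subunits apart and acts in making the large subunit, read 9.76, 10.03, 9.95 and 9.84 in knockout and 9.59, 9.39 and 9.43 in wild type. It rose by 0.42 (SE 0.08, adjusted p = 0.00465). In both genes all knockout arrays lay above all wild type arrays.

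Probe sets of one gene did not always move alike. Of the 28 genes measured by several, all probe sets of 19 pointed the same way. Of the 28, 14 were called. Among these 14, 9 had a further probe set called in the same direction, 5 had none (Eif2s2, Eif2d, Eif3a, Eif3i and Eif2ak3), and none had one called in the opposite direction. A further 4 genes that did not pass had another probe set that did (Eif5b, Eif4e2, Eif4g2 and Eif4ebp1). Of the 103 probe sets 24 were called higher (23.3%) and 13 lower (12.6%), against 14.6% and 14.8% of the 20380 probe sets in that fit. Together 37 were called (35.9%, against 29.4%), and 46 had no overlap between knockout and wild type (44.7%, against 37.1%).

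**Figure D4:**
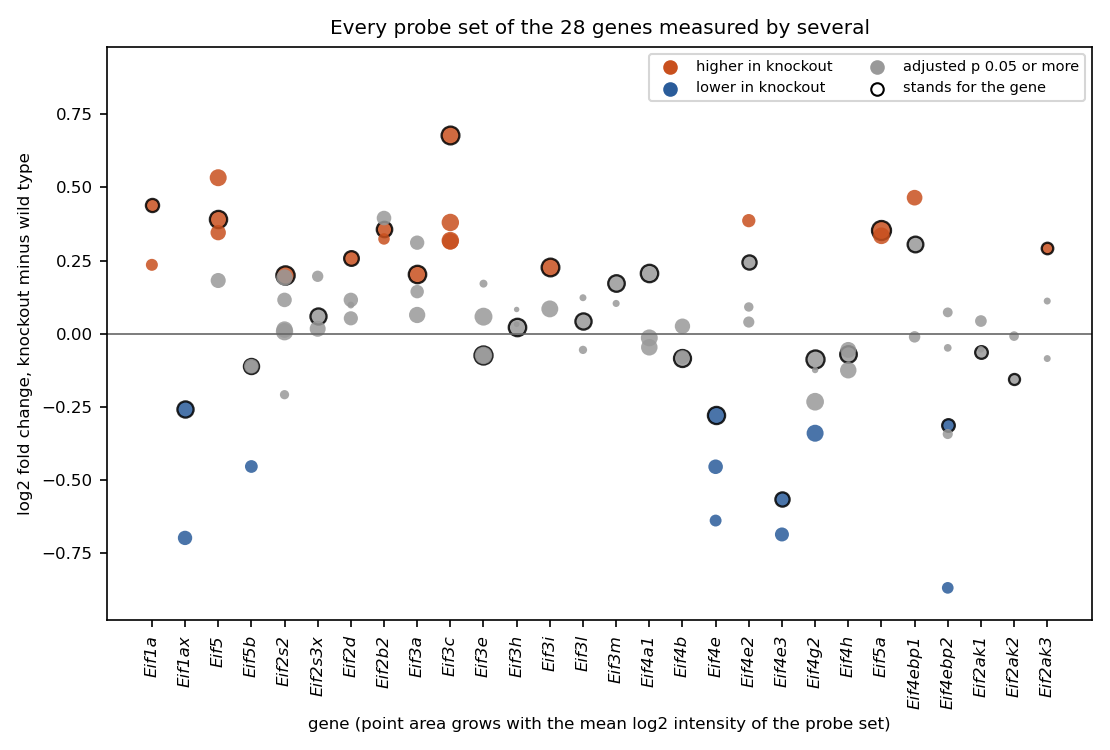
Log2 fold change (knockout minus wild type, vertical axis) of every probe set of the 28 genes with several; area grows with mean log2 intensity, black rings mark the probe set that stands for the gene, and colour gives the call in the fit over all probe sets. All 4 Eif3c probe sets are called higher and all 3 of Eif4e lower, while Eif2s2 spreads from -0.21 to 0.20.

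YY1 binds DNA, and the promoters of the Eif genes were read for its core motif. RefSeq promoter windows (GRCm38.p6, 250 bases before to 50 after the annotated start) were at hand for 34 of the 42 genes. The letters AAGATGG on either strand stood in 6 of the 34 (17.65%), beside 7.86% of 9882 measured genes with a window. The matches fell in 2 of 5 lower genes, 1 of 11 higher genes and 3 of 18 that did not pass. The overlapping letters GATGGCG stood in 4 of 34 (11.76%), beside 6.25%. In 4 genes AAGATGG lay just after the start, with its first base at position 15 in Eif3f, 16 in Eif2s3x, 20 in Eif2s3y and 27 in Eif4e, counted from 1 at the annotated start. In Eif5a and Eif4a1 it lay 75 and 166 bases before the start. The matched stretches of 30 bases are shown because they include Eif4e and Eif3f, lower genes described above, and Eif5a, a higher one; capitals mark AAGATGG, and each is written 5′ to 3′ on the strand of its gene.
Eif4e, chr3:138527283-138527312, plus strand: cagatcgatctAAGATGGcgactgtggaac
Eif3f, chr7:108934418-108934447, plus strand: tctttctcggcAAGATGGcttctccggccg
Eif2s3x, chrX:94212618-94212647, minus strand: tctctccgagcAAGATGGctgggggtgagg
Eif2s3y, chrY:1010603-1010632, plus strand: ctttcgtgagcAAGATGGcgggcggagaag
Eif5a, chr11:69922015-69922044, minus strand: agggtttagacAAGATGGtggcttgtatcg
Eif4a1, chr11:69672571-69672600, minus strand: tgctgggttccAAGATGGctgccccgccgc
In Eif4e and Eif2s3y the run goes on as GATGGCG, so that both motifs overlap there, and the other GATGGCG matches, in Eif2s3x and Eif4enif1, lay on the opposite strand 105 and 112 bases before the start. A match describes the letters only, and binding was not measured here. AAGATGG contains ATG, the letters of a start codon, and the 4 matches just after the start lie in transcribed sequence. Whether they mark the start of translation was not looked up, so the shares above may count start codons. No match to either motif was found for Eif3c, Eif2b5 or Eif3d, the strongest risers by p besides Eif5a. Not every Eif gene had a window, so a missing match can mean a missing window.

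Genes that work beside the initiation factors changed in part. In translation elongation 1 of 7 genes rose and 2 fell (42.9% called, beside 32.9% of all genes), with a median of -0.00071. Eef1a1, the factor that delivers aminoacyl-tRNA, averaged 14.37 ± 0.13 log2 units in knockout (SD, n = 4) and 13.57 ± 0.20 in wild type (SD, n = 3). It rose by 0.80 (SE 0.11, adjusted p = 0.000683). Eef2k, the kinase that halts eEF2, changed by -0.46 (SE 0.10, adjusted p = 0.0067), and Eef1e1, of the synthetase complex, by -0.31 (SE 0.09, adjusted p = 0.0303), a call missed without knockout array 2, 3 or 4 or wild type array 1 or 2 (0.0666 to 0.114). In termination and recycling 1 of 8 rose and 1 fell (median 0.019), and the 25% called is below the share of all genes. The recycling ATPase gene Abce1 rose by 0.31 (SE 0.07, adjusted p = 0.00972) and the release factor gene Etf1 changed by -0.33 (SE 0.06, adjusted p = 0.00204). With its probe sets averaged Etf1 measured -0.16 (adjusted p = 0.0729).

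Of 11 genes of poly(A) binding and cap partners, 3 rose and 1 fell, with a median of 0.038. The 36.4% called is near the 32.9% of all genes. Pabpn1, the nuclear poly(A) binding protein, averaged 12.75 ± 0.14 in knockout (SD, n = 4) and 11.35 ± 0.06 in wild type (SD, n = 3), a rise of 1.40 (SE 0.08, adjusted p = 3.94e-05) and larger than that of any Eif gene. Pabpc1, the cytoplasmic protein that eIF4G binds, rose by 0.46 (SE 0.07, adjusted p = 0.00164). The PABP inhibitor gene Paip2b changed by -0.47 (SE 0.09, adjusted p = 0.00558), whereas its relative Paip2 rose by 0.18 (SE 0.06, adjusted p = 0.0448) and missed the threshold without any array but knockout array 1 (0.06 to 0.120). In the signalling that feeds eIF4F, 4 of 15 rose and 3 fell (46.7% called, median -0.0061). Ddit4l, an inhibitor of mTOR signalling, changed by -1.45 (SE 0.11, adjusted p = 6.66e-05), the mTOR subunit gene Mlst8 by -0.48 (SE 0.10, adjusted p = 0.00644) and Tsc2 by -0.26 (SE 0.07, adjusted p = 0.0198), the last missed without wild type array 1 (0.0722) or 3 (0.0717). Sesn1, a stress-induced inhibitor of mTOR, rose by 0.85 (SE 0.11, adjusted p = 0.000744), the kinase gene Akt1 by 0.48 (SE 0.07, adjusted p = 0.00147), and Mknk2, which phosphorylates eIF4E, by 0.25 (SE 0.07, adjusted p = 0.0281). Mknk2 missed the threshold without knockout array 2 or 4 or any single wild type array (0.0562 to 0.0933), and with its probe sets averaged (0.17, adjusted p = 0.169).

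Of 8 partners of eIF2 phosphorylation 2 rose and none fell (25% called, beside 32.9% of all genes), with a median of 0.035. Ppp1r15a, the stress-induced subunit that directs a phosphatase to eIF2, averaged 9.63 ± 0.05 in knockout (SD, n = 4) and 9.31 ± 0.05 in wild type (SD, n = 3), a rise of 0.32 (SE 0.05, adjusted p = 0.00244). Tarbp2, a double-stranded RNA binding protein that restrains PKR, rose by 0.24 (SE 0.06, adjusted p = 0.0209), and missed the threshold without knockout array 2 (0.0529) or wild type array 2 (0.0767) or 3 (0.0677).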

How the data were processed

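Total RNA of the soleus was measured on 7 one-colour Affymetrix arrays. The deposited intensity values were made with RMA, per the submitters' processing notes; the sources used here name no software or version. They were linear (lowest value of an array 11.34 to 12.88, highest 48550 to 50754, medians 139.1 to 143.2) and were taken to log2(value + 1), the scale of every fold change here. Precision is limited by the number of arrays. The table held 0 columns of other samples. Of 22690 probe sets 64 controls, 691 with several gene symbols (5 of them with an Eif symbol) and 1555 with none were left out. The brightest probe set by mean stood for each of 12393 genes. Knockout was compared with wild type with limma 3.58.1 (R 4.3.3; lmFit and eBayes, two-sided). P-values were adjusted over all genes by Benjamini-Hochberg, with a threshold of 0.05 and no filter on dim genes. A second fit ran over all 20380 probe sets with 1 symbol. Alternatives changed the pseudocount, scaling, filter on dim genes, probe set choice, variance moderation, symbols and replicate block, or left out each array in turn. The fit was tested on simulated data. The labels state no pairing, so none was used. Deviations of same-numbered arrays had correlations of -0.13 to 0.029, and those of other pairs -0.15 to 0.14. So few arrays cannot exclude a pairing. All Eif genes are described. Values of each array are given for the called genes with the smallest p, up to 10 in each direction, for kinases, repressors and sex-linked genes. Those of Eif2s2 and Eif2d were added after their values were seen. Of each list of related genes up to 3 called ones per direction, by smallest p, are named. The members and lists were chosen with earlier results of these data known.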

Additional observations from a re-analysis of the deposited data

Results flagged for a closer look

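In the 4 knockout arrays, 2 of 43 genes examined (the Eif genes and Yy1) had one array far from the other 3 by Dixon's test, about as many as chance gives at 1 in 20. Eif2s2 read 13.39 on knockout array 2, above 3 others that lay close together. Eif5b read 9.944 on knockout array 3, below the others.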

How the results depend on the processing

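Of 836 comparisons of a single Eif gene under an alternative, 761 kept direction and side of the threshold, 53 lost a call, 13 gained one and 9 turned sign, none of these 9 with a called value. The 9 were Eif1b (0.0034 without knockout array 3, 0.018 without wild type array 1; -0.059 to 0.018 over all single omissions), Eif3e (0.049 with quantile normalization, 0.021 with probe sets averaged), Eif3h (-0.0069 without knockout array 2; up to 0.052), Eif3l (-0.055) and Eif4b (0.026) by the probe set with the largest interquartile range, Eif4g2 (0.010 with quantile normalization) and Eif2ak2 (0.013 without wild type array 3; down to -0.35). Leaving out 1 array gave 8 to 14 Eif genes higher and 1 to 7 lower; all genes gave 1592 to 2036 higher and 1579 to 1926 lower, and fewer arrays were fitted. By group these omissions gave 0 to 1 lower in eIF1, eIF1A, eIF5 and eIF5B, 0 to 2 higher and 0 to 1 lower in eIF2 and eIF2D, 1 to 2 higher in eIF2B, 2 to 4 higher in eIF3, 0 to 1 higher and 0 to 3 lower in eIF4, 0 to 2 higher and 0 to 1 lower among repressors and 0 to 1 higher among kinases. The replicate number as a block, which pairs arrays by number only, gave 9 Eif genes higher and 5 lower, with 0 higher in eIF2 and eIF2D, 2 in eIF3 and 0 among repressors. Probe sets averaged gave 2 lower in eIF1, eIF1A, eIF5 and eIF5B, 0 higher in eIF2 and eIF2D, 1 in eIF4, 2 among repressors and 0 among kinases. The probe set with the largest interquartile range gave 2 lower in eIF1, eIF1A, eIF5 and eIF5B, 1 higher in eIF2 and eIF2D, 1 in eIF2B, 1 in eIF4 and 2 among repressors. Arrays centred on the median gave 0 repressors higher; genes above the median brightness gave 1 eIF4 gene higher and, with Eif2ak3 removed by that filter, 0 kinases. Where no construction is named, the cause was not tested. The fit over all probe sets was chosen after seeing the data. Dim probe sets near the lowest values limit what can be said of Eif2ak4 and of the fainter probe sets of Eif2ak3.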
